A study of Mus musculus with 8 samples.

Results

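The 10 genes described here encode chemokines that draw granulocytes, monocytes and type 2 T cells: Ccl17, Ccl22, Ccl8, Ccl11, Ccl24, Ccl6, Ccl9, Ccl3, Ccl4 and Cxcl2. They were chosen by symbol, matched to the Ensembl identifiers of the deposited tables, and are 10 of 54446 genes there. All 10 had counts in at least 1 library, and all 10 were among the 11828 genes that passed a filter on low counts and were tested. In a study of eosinophils in a mouse asthma model, RNA of sorted eosinophils was counted by CEL-Seq, which reads transcript 3' ends after linear amplification. SiglecFhi/CD101+ eosinophils had 2 libraries (replicates 1 and 2), Siglec-Fint/CD101- eosinophils had 2 (replicates 1 and 2) and resident eosinophils had 4 (replicates 3 to 6), all from C57BL/6 mice. Siglec-F, a lectin that binds sialic acids, and CD101, a membrane protein with immunoglobulin domains, are the surface markers by which the first pair of groups was sorted. The labels used here give no treatment, age, sex or animal for any group, so a difference in treatment cannot be told apart from the groups. Whether each replicate was another mouse is not stated, and the p-values therefore measure spread among these samples alone, which may be technical.

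Chemokines are small secreted proteins that bind G protein-coupled receptors and guide leukocytes along gradients. In type 2 inflammation of the airway, cytokines such as IL-4 and IL-13, acting through the transcription factor STAT6, induce Ccl17, Ccl22 and the eotaxins, while microbial products and IL-1, acting through NF-kB, induce Ccl3, Ccl4 and Cxcl2. Macrophages and dendritic cells are well-known sources of most of these chemokines, and eosinophils can make several of them.

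Most members lie near a paralog. Ccl22 (ENSMUSG00000031779, chromosome 8, 94745590 to 94751699, GRCm38) and Ccl17 (ENSMUSG00000031780, 94810453 to 94812036) are 58.8 kb apart. On chromosome 11, Ccl11 (ENSMUSG00000020676, 82057823 to 82062955) and Ccl8 (ENSMUSG00000009185, 82115185 to 82116799) are 52.2 kb apart, Ccl9 (ENSMUSG00000019122, 83572919 to 83578636) and Ccl6 (ENSMUSG00000018927, 83587882 to 83593087) are 9.24 kb apart, and Ccl3 (ENSMUSG00000000982, 83647844 to 83649355) and Ccl4 (ENSMUSG00000018930, 83662584 to 83664683) are 13.2 kb apart. Cxcl2 (ENSMUSG00000058427, 90903871 to 90905938) and Ccl24 (ENSMUSG00000004814, 135569937 to 135573049) are on chromosome 5. The positions are those of GENCODE M21, and all 10 are protein-coding genes.

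RefSeq promoter windows on GRCm38.p6 matched 7 of the 10 members, and 3 of them are shown, picked after the values were seen: Ccl17, whose mean was lowest in SiglecFhi/CD101+, Ccl8, whose counts came mostly from Siglec-Fint/CD101-, and Cxcl2, whose groups overlapped. The Ccl17 stretch is chr8:94810203-94810452, the Ccl8 stretch chr11:82114935-82115184 and the Cxcl2 stretch chr5:90903649-90903870, all on the plus strand and ending at the base before the gene's start in GENCODE.
Ccl17: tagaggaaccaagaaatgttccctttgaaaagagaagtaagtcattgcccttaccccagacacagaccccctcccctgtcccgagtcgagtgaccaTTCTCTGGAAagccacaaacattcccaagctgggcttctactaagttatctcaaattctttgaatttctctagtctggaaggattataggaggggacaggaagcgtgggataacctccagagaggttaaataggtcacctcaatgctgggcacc
Ccl8: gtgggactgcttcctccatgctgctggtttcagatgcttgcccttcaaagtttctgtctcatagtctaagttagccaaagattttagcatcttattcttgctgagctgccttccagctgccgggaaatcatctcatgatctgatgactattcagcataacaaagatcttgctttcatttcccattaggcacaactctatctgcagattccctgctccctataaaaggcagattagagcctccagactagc
Cxcl2: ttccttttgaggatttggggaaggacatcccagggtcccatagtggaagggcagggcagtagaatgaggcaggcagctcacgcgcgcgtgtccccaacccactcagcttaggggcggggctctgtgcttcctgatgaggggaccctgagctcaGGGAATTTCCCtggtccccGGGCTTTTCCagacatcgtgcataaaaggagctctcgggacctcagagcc
Capitals mark matches to a STAT motif (TTC, then 4 bases of any kind, then GAA, which reads the same on both strands) or to an NF-kB type motif (GGG, 3 bases of any kind, then TTCC, searched on both strands). The STAT motif was in the window of 1 of the 7 members, Ccl17, at position -154 from the RefSeq start, and in 6.95% of 32851 promoter windows of the same length. The NF-kB type motif was in the windows of 2 members. Cxcl2 had 3 matches, at positions -97, -96 and -78, of which the first 2 overlap on opposite strands, and Ccl9 had 1 at position -35. Of all windows 5.56% held that motif. A match is a run of letters only, and says nothing about binding in these cells.

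Total counts were 3109428 and 1513517 in SiglecFhi/CD101+ libraries, 1517159 and 2990294 in Siglec-Fint/CD101- libraries, and 5600610 to 11583550 in resident libraries. Genes of the mitochondrial genome took 82.2% and 70.6% of them in SiglecFhi/CD101+, 69.9% and 83.9% in Siglec-Fint/CD101- and 38.6% to 61.8% in the resident group. With these genes left out of the fit, still 0 of the 10 chemokines were called by edgeR in any comparison. The mitochondrial share left 444902 to 552121 other counts in the 4 subset libraries and 2137819 to 5296468 in resident libraries. The 10 chemokines together made up 0.294% and 0.41% of these other counts in SiglecFhi/CD101+, 0.833% and 0.381% in Siglec-Fint/CD101- and 0.239% to 0.589% in resident libraries. Levels below are CPM, that is counts scaled to library sizes adjusted by TMM, and a count of 3 equals 1.58 and 1.82 CPM in SiglecFhi/CD101+, 2.17 and 1.85 CPM in Siglec-Fint/CD101- and 0.199 to 0.499 CPM in resident libraries. The defining genes of eosinophils were uneven: Prg3 had no count in any library, Epx and Il5ra had none in either subset, and Siglecf, which encodes the sorted marker, had none in Siglec-Fint/CD101- libraries. Resident libraries held little of them as well: Epx had 25 counts, all in replicate 5 (1.74 CPM), and replicate 6 held 57 of the 58 Il5ra counts (3.77 CPM). The level of Siglecf was 10.02 and 26.7 CPM in SiglecFhi/CD101+ and 4.26 to 43.7 CPM in the resident group. Prg2, which encodes a granule protein, was at 38.5 and 234 CPM in SiglecFhi/CD101+, at 0.724 and 1.85 CPM in Siglec-Fint/CD101- and at 4.93 to 15.8 CPM in the resident group, and Ear2 was at 46.4 to 290 CPM over all 8 libraries. The 9 eosinophil markers summed to 107 and 387 CPM in SiglecFhi/CD101+, 153 and 248 CPM in Siglec-Fint/CD101- and 179.9 to 425 CPM in resident libraries, so the share of eosinophil RNA is not known. Groups were taken from the sample titles alone, and the deposited tables carry a letter for each group that the labels do not explain. In RNA pooled from many cells, fewer cells of a type and less RNA per cell cannot be told apart.

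Ccl17 and Ccl22 encode the ligands of CCR4, the receptor by which T helper 2 and regulatory T cells are drawn. Ccl17 was at 21.6 and 15.2 CPM in SiglecFhi/CD101+ libraries, at 195 and 21.6 CPM in Siglec-Fint/CD101- libraries, and at 196, 152, 69.5 and 128 CPM in resident libraries. Both SiglecFhi/CD101+ libraries were below every resident library, and the Siglec-Fint/CD101- libraries were split, with replicate 1 beside the highest resident library and replicate 2 level with SiglecFhi/CD101+ replicate 1. The log2 fold change of SiglecFhi/CD101+ against resident libraries was -2.89 ± 0.90 (SE), and it did not pass the test over all genes (adjusted p = 0.197, edgeR's quasi-likelihood F test, p-values adjusted after Benjamini and Hochberg). It passed only with the low-count filter removed (adjusted p = 0.0499), and its adjusted p under the other settings and with each library left out ranged from 0.0515 to 0.421, with log2 fold changes from -3.53 to -2.43.

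Ccl22 was at 59.6 and 61.3 CPM in SiglecFhi/CD101+ libraries, at 52.1 and 25.3 CPM in Siglec-Fint/CD101- libraries, and at 275, 153, 65.7 and 162 CPM in resident libraries. All 4 subset libraries were below all 4 resident libraries, although resident replicate 5 was within a few CPM of SiglecFhi/CD101+ replicate 2. Its mean was 60.5 ± 1.19 CPM in SiglecFhi/CD101+ and 38.7 ± 18.9 CPM in Siglec-Fint/CD101- libraries (SD, n = 2 each), and 164 ± 85.8 CPM in resident libraries (SD, n = 4). The log2 fold changes against resident libraries were -1.44 ± 0.70 in SiglecFhi/CD101+ (adjusted p = 0.31, edgeR) and -2.08 ± 0.73 in Siglec-Fint/CD101- (adjusted p = 0.288, edgeR). The mean of both subsets against resident libraries gave -1.76 ± 0.55 (adjusted p = 0.115, edgeR). Without resident replicate 3 that value was -1.35 (adjusted p = 0.273, edgeR).

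The ratio of Ccl17 to Ccl22 counts within a library does not depend on scaling. It was 0.363 and 0.247 in SiglecFhi/CD101+, 3.74 and 0.854 in Siglec-Fint/CD101-, while resident libraries had 0.714, 0.994, 1.06 and 0.789. Both SiglecFhi/CD101+ libraries thus lay below the other 6, while Siglec-Fint/CD101- replicate 1 lay above all. The ratios were chosen after the values were seen and are given as a description.

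**Figure D1:**
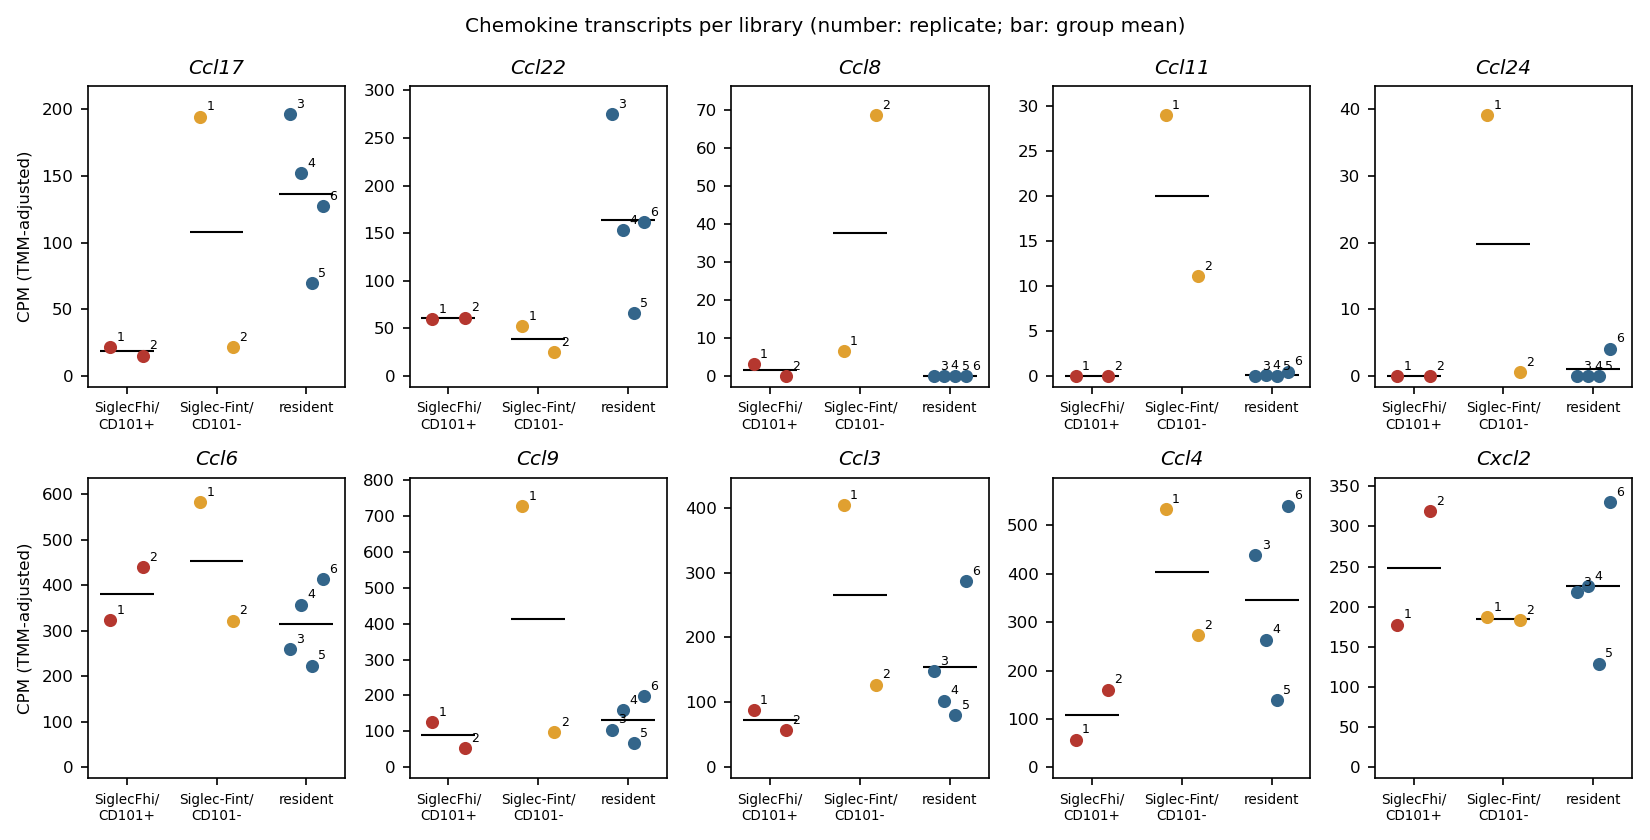
CPM of each of the 10 chemokine genes (vertical axis, linear) in SiglecFhi/CD101+ (n = 2), Siglec-Fint/CD101- (n = 2) and resident libraries (n = 4), with each point a library numbered by replicate and the bar the group mean. Ccl22 sits at 25.3 to 61.3 CPM in all subset libraries and at 65.7 CPM or more in resident libraries, and Siglec-Fint/CD101- replicate 1 holds the highest point of Ccl9, at 727 CPM.

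Ccl11 and Ccl24 encode eotaxins, the ligands of CCR3 that attract eosinophils themselves, and Ccl8 encodes a chemokine that in mice acts on CCR8 of T helper 2 cells. Outside Siglec-Fint/CD101- libraries each of these genes had 7 counts or fewer in a library, except Ccl24 in resident replicate 6. Ccl8 had 6 and 0 counts in SiglecFhi/CD101+, 9 and 111 counts in Siglec-Fint/CD101-, and 0, 1, 0 and 0 counts in the resident group. Replicate 2 held most of the Siglec-Fint/CD101- counts, and replicate 1 was above every library of the other groups.

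Over the groups, Ccl8 in Siglec-Fint/CD101- was 1929-fold its resident level, which rests on 1 count (exact 95% counting interval 339.7 to 76830). With Siglec-Fint/CD101- replicate 1 alone the ratio was 314 (43.5 to 13770), and with replicate 2 alone 3309 (582 to 131800). In SiglecFhi/CD101+ the ratio to resident libraries was 81.7 (9.91 to 3758), all from the 6 counts of replicate 1. These intervals cover counting error only, and a count may be a read or a molecule. Against the spread between libraries Ccl8 did not pass by edgeR, with an adjusted p of 0.145 in Siglec-Fint/CD101- and 0.214 in SiglecFhi/CD101+ against resident, and 0.284 between the subsets. DESeq2 gave adjusted p = 2.46e-05, 0.0292 and 0.108 for the same comparisons. Ccl8 was tested only because it was high in Siglec-Fint/CD101-, so these p-values support nothing.

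Ccl11 had 0 and 0 counts in SiglecFhi/CD101+, 40 and 18 counts in Siglec-Fint/CD101-, and 0, 1, 0 and 7 counts in the resident group. Both Siglec-Fint/CD101- libraries, at 28.9 and 11.1 CPM, were above all 6 others, of which the highest was resident replicate 6 at 0.463 CPM. Ccl11 in Siglec-Fint/CD101- was 117-fold its resident level (exact 95% counting interval 55.4 to 283). With replicate 1 alone the ratio was 174.5 (80.6 to 432), and with replicate 2 alone 67.1 (27.8 to 178). SiglecFhi/CD101+ had no counts. Taking 3 counts over that group, it was 22.8-fold below the pooled Siglec-Fint/CD101- libraries, a value that carries no interval. The gap to replicate 2 alone, the lower of these libraries, was smaller. By edgeR the adjusted p was 0.253 for Siglec-Fint/CD101- against resident and 0.239 for SiglecFhi/CD101+ against Siglec-Fint/CD101-, and by DESeq2 0.00506 and 0.0274. Ccl11 too was tested only because it was high in Siglec-Fint/CD101-, so these p-values support nothing.

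Ccl24 was counted in 3 libraries, with 0 and 0 counts in SiglecFhi/CD101+, 54 and 1 counts in Siglec-Fint/CD101-, and 0, 0, 0 and 62 counts in the resident group. In each of these groups nearly all counts came from 1 library, Siglec-Fint/CD101- replicate 1 and resident replicate 6. The ratio of Siglec-Fint/CD101- to resident was 14.3 (exact 95% counting interval 9.74 to 20.8), but 0.481 (0.012 to 2.78) with Siglec-Fint/CD101- replicate 2 alone. The adjusted p by edgeR was 0.346. Ccl8, Ccl11 and Ccl24 passed the low-count filter through Siglec-Fint/CD101- libraries (and, for Ccl24, resident replicate 6), so no count that includes them supports anything, and the counts of 7 chemokines below leave them out.

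Ccl6 and Ccl9 encode CCR1 ligands of rodents that attract myeloid cells. Ccl6 was at 323 and 440.1 CPM in SiglecFhi/CD101+, at 583 and 323 CPM in Siglec-Fint/CD101-, and at 261, 358, 224 and 414 CPM in the resident group. The 3 groups overlapped, and the log2 fold changes of 0.28 ± 0.43 and 0.53 ± 0.43 against resident libraries (SiglecFhi/CD101+ and Siglec-Fint/CD101-) had adjusted p = 0.784 and 0.52 by edgeR. Both turned negative on library totals alone (-0.30 and -0.24). The median of all tested genes lay at -0.72 and -0.997 in these comparisons, below Ccl6 in each. That median moved to -0.26 and -0.63 with RLE scaling and to -1.46 and -1.95 on library totals, and a sign near 0 therefore depends on the scaling.

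Ccl9 was at 125 and 53.4 CPM in SiglecFhi/CD101+, at 727 and 98.9 CPM in Siglec-Fint/CD101-, and at 105, 159.7, 68.0 and 198 CPM in the resident group. Only Siglec-Fint/CD101- replicate 1 stood outside the range of 53.4 to 198 CPM that held the other 7 libraries. The log2 fold change of Siglec-Fint/CD101- against resident was 1.64 ± 0.67 (adjusted p = 0.296, edgeR), and -0.48 without that library. The ratio of Ccl6 to Ccl9 counts was 2.59 and 8.24 in SiglecFhi/CD101+, 0.802 and 3.26 in Siglec-Fint/CD101-, while resident libraries had 2.49, 2.24, 3.29 and 2.1, so the subset libraries spread on both sides of the resident ones.

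**Figure D2:**
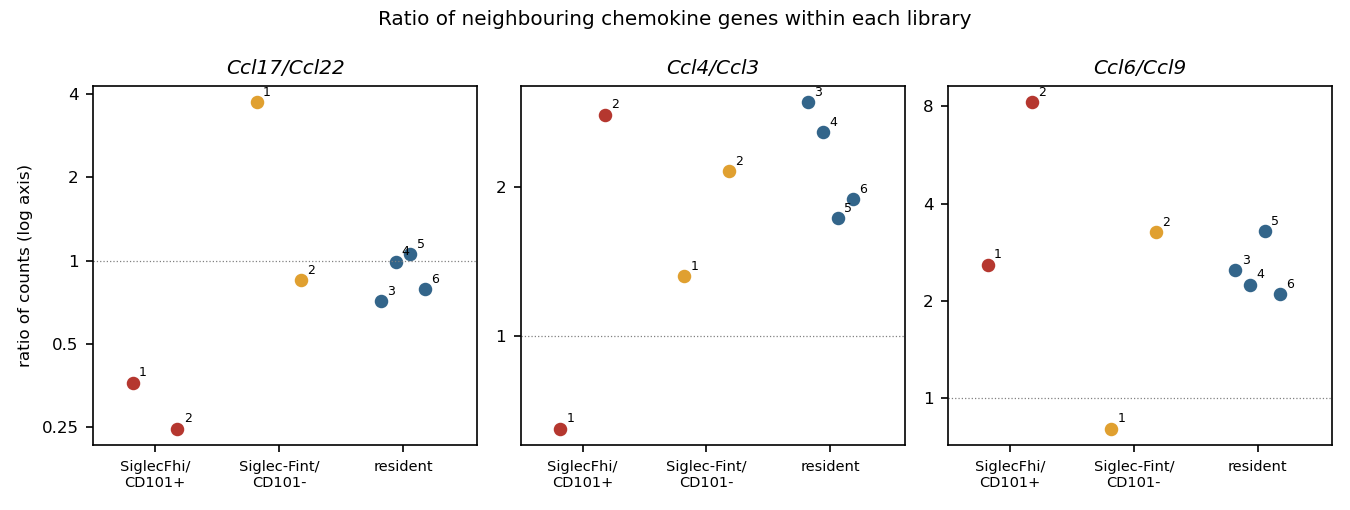
Ratio of counts of nearby chemokine genes within each library (vertical log axis), for Ccl17 over Ccl22, Ccl4 over Ccl3 and Ccl6 over Ccl9, by group, with each point a library numbered by replicate. Ccl17 over Ccl22 is 0.363 and 0.247 in SiglecFhi/CD101+ libraries, below the other 6, and the libraries within each subset differ in the other pairs.

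Ccl3 and Ccl4 encode inflammatory chemokines that attract monocytes and T cells, and Ccl3 acts on CCR1. Ccl3 was at 88.1 and 57.7 CPM in SiglecFhi/CD101+, at 404 and 127 CPM in Siglec-Fint/CD101-, and at 149, 103, 80.6 and 287 CPM in the resident group. The SiglecFhi/CD101+ libraries were both below the Siglec-Fint/CD101- ones and overlapped the resident range. The log2 fold change of SiglecFhi/CD101+ against Siglec-Fint/CD101- was -1.86 ± 0.76 (adjusted p = 0.249, edgeR) and was -0.85 without Siglec-Fint/CD101- replicate 1.

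Ccl4 was at 57.5 and 161 CPM in SiglecFhi/CD101+, at 533 and 274 CPM in Siglec-Fint/CD101-, and at 439, 264, 139 and 541 CPM in the resident group. SiglecFhi/CD101+ replicate 1 was the lowest of all 8 libraries, and replicate 2 was above resident replicate 5 only. The log2 fold change was -1.66 ± 0.63 against resident (adjusted p = 0.236, edgeR) and -1.89 ± 0.69 against Siglec-Fint/CD101- (adjusted p = 0.24, edgeR). Against resident libraries it was -2.69 without SiglecFhi/CD101+ replicate 2. The ratio of Ccl4 to Ccl3 counts was 0.653 and 2.79 in SiglecFhi/CD101+, 1.32 and 2.15 in Siglec-Fint/CD101- and 1.73 to 2.95 in resident libraries.

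Cxcl2 encodes a ligand of CXCR2 that recruits neutrophils. It was at 178 and 319 CPM in SiglecFhi/CD101+, at 187 and 184 CPM in Siglec-Fint/CD101-, and at 219, 225, 129 and 330.5 CPM in the resident group. Every subset library lay inside the resident range. The log2 fold changes against resident were 0.14 ± 0.50 in SiglecFhi/CD101+ and -0.29 ± 0.51 in Siglec-Fint/CD101- (adjusted p = 0.923 and 0.802, edgeR), and the first turned to -0.37 on library totals, the second to 0.09 with RLE scaling.

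By edgeR at an adjusted p under 0.05, 0 of the 10 chemokines were called in any of the 4 comparisons. The same rule called 0.0254% of all tested genes higher and 0% lower in SiglecFhi/CD101+ against resident libraries, 0.0338% and 0.0254% in Siglec-Fint/CD101- against resident, 0.00845% and 0% between the subsets, and 0.0254% and 0% for both subsets against resident. limma-voom also called 0 members in each, and 0.0169% of all genes higher in either subset against resident, 0.0423% for both subsets and 0% between the subsets. At an unadjusted p under 0.05 edgeR gave the counts below. DESeq2 called 0 of the 7 chemokines that had counts in every library. Its adjusted p-values under 0.05 were those of Ccl8 and Ccl11, which were tested only because they were high in Siglec-Fint/CD101-. Of the genes to which it gave an adjusted p, DESeq2 called 3.26% higher and 6.56% lower in SiglecFhi/CD101+ against resident, 1.22% and 7.05% in Siglec-Fint/CD101- against resident, 8.64% and 6.81% between the subsets, and 2.19% and 7.74% for both subsets against resident. These were 9577, 8908, 8476 and 10468 genes in the same order, fewer than the 11828 behind the edgeR and limma-voom shares. DESeq2 gave no adjusted p for Ccl24.

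Among the 7 chemokines that had counts in every library, the comparison of the subsets gave more unadjusted p-values under 0.05 than any other. At an unadjusted p under 0.05 by edgeR, 4 of the 7 (Ccl17, Ccl9, Ccl3 and Ccl4) were lower and 0 were higher in SiglecFhi/CD101+ than in Siglec-Fint/CD101- libraries, where 7.96% of all genes were lower and 9.98% higher. Their log2 fold changes were -2.55, -2.21, -1.86 and -1.89, with adjusted p-values of 0.24 to 0.249, so none passed. The median over the 7 was -1.86, against 0 over all 11828 tested genes. Without Siglec-Fint/CD101- replicate 1 the count was 0 of 7 and the log2 fold change of Ccl17 was -0.28 and of Ccl9 -0.20, and without SiglecFhi/CD101+ replicate 2 the count was 1 of 7.

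Against resident libraries the same rule found 2 of the 7 lower in SiglecFhi/CD101+ (Ccl17 and Ccl4), where 13.1% of all genes were lower, and 0 higher, where 3.65% were. In Siglec-Fint/CD101- it found 1 lower (Ccl22; 13.8% of all genes) and 1 higher (Ccl9; 1.9%). For the mean of both subsets it found 2 lower (Ccl17 and Ccl22; 21% of all genes) and 0 higher (1.91%). The medians over the 7 were -1.08 in SiglecFhi/CD101+, 0.22 in Siglec-Fint/CD101- and -0.15 for both subsets, against -0.72, -0.997 and -1.28 over all genes. Values without overlap between groups were lower for 2 of the 7 in SiglecFhi/CD101+ (27.4% of all genes), for 1 in Siglec-Fint/CD101- (29.3%) and for 1 in both subsets (12%) against resident, and higher for 0 in each (6.78%, 4.46% and 0.702% of all genes). Between the subsets 2 of the 7, Ccl3 and Ccl4, were lower without overlap (11.9% of all genes) and 1, Ccl22, was higher (15.8%). The comparisons with resident libraries share those libraries.

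**Figure D3:**
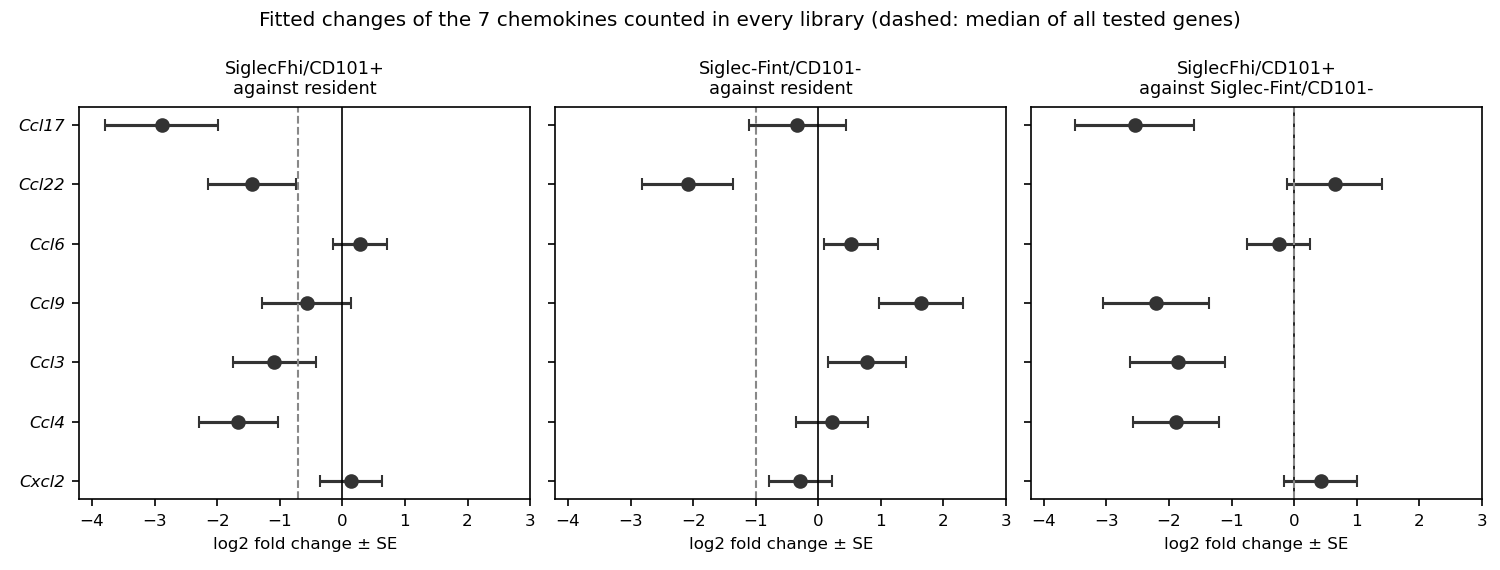
Log2 fold change ± SE from the edgeR fit (horizontal axis) of the 7 chemokines counted in every library, for SiglecFhi/CD101+ against resident, Siglec-Fint/CD101- against resident, and SiglecFhi/CD101+ against Siglec-Fint/CD101- libraries, with the median of all tested genes dashed at -0.72, -0.997 and 0. Between the subsets, Ccl17, Ccl9, Ccl3 and Ccl4 lie from -2.55 to -1.86 and none passed the adjusted test.

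Sums of marker genes of other cells are given here beside these levels. The 10 macrophage markers summed to 162 and 229 CPM in SiglecFhi/CD101+, 685 and 286 CPM in Siglec-Fint/CD101-, and 245 to 661 CPM in the resident group, with Msr1 at 0 in Siglec-Fint/CD101- and all 10 detected in the other groups. Siglec-Fint/CD101- replicate 1, the highest library for Ccl9, Ccl3 and Ccl6, had the highest macrophage sum. Resident replicate 4, next at 661 CPM, had Ccl3 at 103 CPM and Ccl9 at 159.7 CPM. The list also did not move as one in Siglec-Fint/CD101- replicate 1. In that library C1qb was at 436 CPM and C1qc at 185 CPM, while Adgre1 was at 4.34 CPM, the lowest of the 8 libraries, Cd68 at 7.96 CPM, against 31.1 to 77.8 CPM in the resident group, and Mertk, Marco and Msr1 at 0. The 9 dendritic cell markers summed to 138 and 84.4 CPM in SiglecFhi/CD101+, 166 and 232 CPM in Siglec-Fint/CD101- and 139.8 to 219 CPM in the resident group, and Cacnb3 was at 0 in SiglecFhi/CD101+. The 5 monocyte markers summed to 34.8 and 42.5 CPM in SiglecFhi/CD101+, 52.8 and 68.0 CPM in Siglec-Fint/CD101-, and 46.8 to 103 CPM in the resident group, with Vcan and F13a1 at 0 in SiglecFhi/CD101+. These zeros say little, since Vcan and F13a1 averaged 0.87 and 0.289 CPM in the resident group. In SiglecFhi/CD101+ libraries 3 counts equal 1.58 and 1.82 CPM.

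These 3 sums were lower in both SiglecFhi/CD101+ libraries than in the other 6. Of all single genes, 27.4% were lower without overlap in SiglecFhi/CD101+ than in resident libraries, and 11.9% than in Siglec-Fint/CD101- libraries. For dendritic cells the gap was narrow, with 138 CPM in SiglecFhi/CD101+ replicate 1 and 139.8 CPM in resident replicate 5. Some single genes went the other way. Clec9a at 52.8 CPM and C1qa at 47.0 CPM in SiglecFhi/CD101+ replicate 1 were the highest of all libraries. Plac8 at 41.3 CPM in SiglecFhi/CD101+ replicate 2 was above every resident library. The largest part of the monocyte sum was Plac8 in Siglec-Fint/CD101- (47.0 and 30.3 CPM) and Ccr2 in the resident group (29.0 to 78.6 CPM). Ccr2 was at 22.2 and 0.607 CPM in SiglecFhi/CD101+ and at 3.62 and 0.618 CPM in Siglec-Fint/CD101-. Ccl17 was as low in Siglec-Fint/CD101- replicate 2, the library with the highest dendritic cell sum, as in SiglecFhi/CD101+ replicate 1. Neutrophil markers (8 genes) summed to 262 and 1051 CPM in SiglecFhi/CD101+, 590 and 1522 CPM in Siglec-Fint/CD101- and 119 to 469.8 CPM in resident libraries, with Camp at 0 in both subsets. Retnlg alone made up 208 and 974 CPM of this sum in SiglecFhi/CD101+, 549 and 1444 CPM in Siglec-Fint/CD101- and 50.7 to 447 CPM in the resident group. T cell markers (6 genes) summed to 154 and 59.5 CPM in SiglecFhi/CD101+, 119 and 146 CPM in Siglec-Fint/CD101- and 2.32 to 15.3 CPM in resident libraries. The subset sums rested on Cd4, at 73.9 and 57.7 CPM in SiglecFhi/CD101+ and 0 and 144 CPM in Siglec-Fint/CD101-, and on Trac, at 64.4 and 0 CPM in SiglecFhi/CD101+ and 105 and 0 CPM in Siglec-Fint/CD101-, while Cd3e and Cd3g were at 1.58 CPM or less in these libraries. Basophil and mast cell markers (5 genes) summed to 0.528 and 0 CPM in SiglecFhi/CD101+ and 0.724 and 0 CPM in Siglec-Fint/CD101-. They summed to 2.16, 16.6, 1.53 and 64.3 CPM in resident replicates 3 to 6, the last of these being the resident library with Ccl24. Siglec-Fint/CD101- replicate 1, at 0.724 CPM of these markers, had the highest Ccl24 level (39.1 CPM). B and plasma cell markers (5 genes) summed to 144 to 295 CPM in SiglecFhi/CD101+, 163 to 316 CPM in Siglec-Fint/CD101- and 32.6 to 144 CPM in resident libraries, and epithelial markers (6 genes) to 3367 to 3419, 3432 to 6355 and 673 to 10280 CPM in the same order. The part of these cells in the chemokine levels was not tested.

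**Figure D4:**
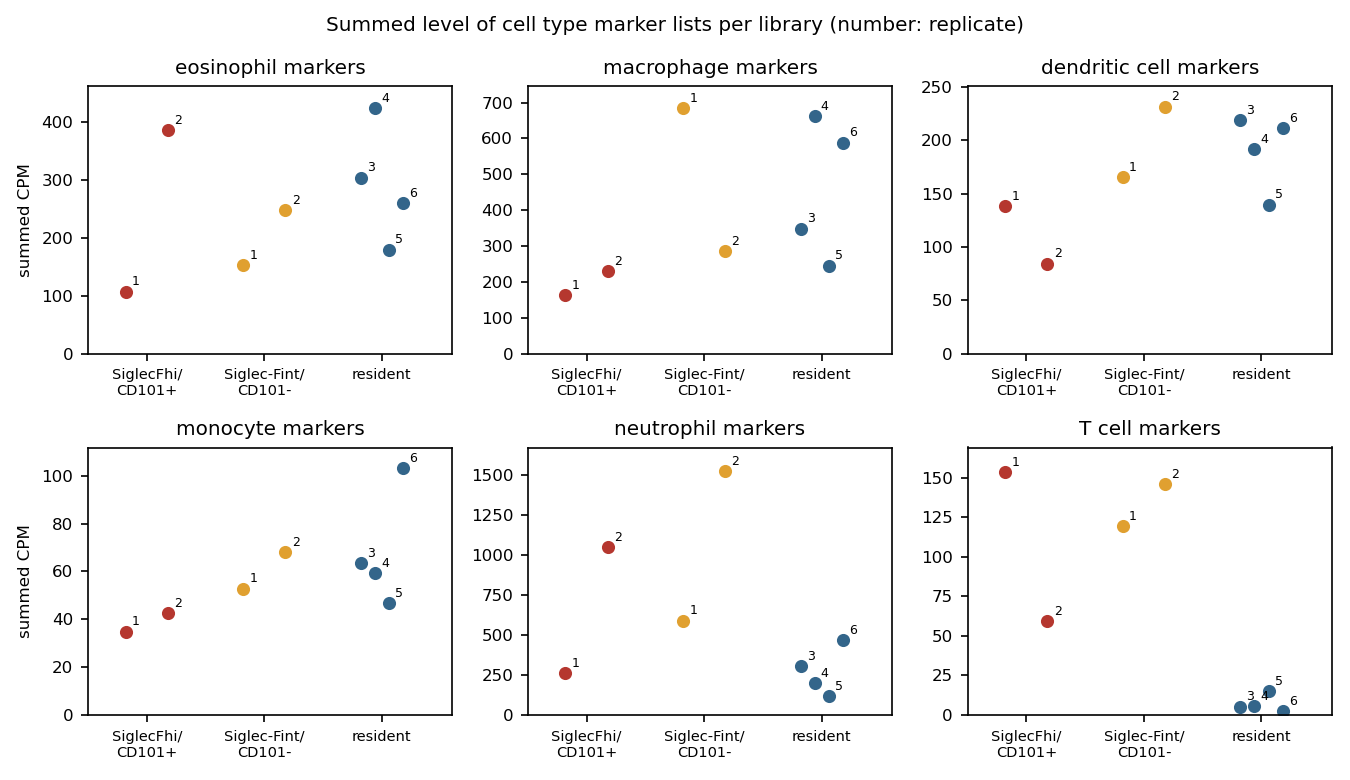
Summed CPM of 6 marker lists (vertical axis, linear from 0) in SiglecFhi/CD101+, Siglec-Fint/CD101- and resident libraries, with each point a library numbered by replicate. Macrophage, dendritic cell and monocyte sums are lowest in the 2 SiglecFhi/CD101+ libraries, for dendritic cells narrowly (138 CPM against 139.8 CPM). T cell sums, mostly Cd4 and Trac in the subsets, are 59.5 CPM or more in subset libraries and 15.3 CPM or less in resident libraries.

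Of 27 other chemokine genes, 13 were tested and 0 passed by edgeR in any comparison, and the smallest adjusted p was 0.106. By unadjusted p-values under 0.05, 1 was higher and 4 lower in SiglecFhi/CD101+ against resident, 2 and 0 in Siglec-Fint/CD101- against resident, 0 and 3 in SiglecFhi/CD101+ against Siglec-Fint/CD101-, and 1 and 6 for both subsets against resident. The shares of all genes were 3.65% higher and 13.1% lower, 1.9% and 13.8%, 9.98% and 7.96%, and 1.91% and 21% in the same order of comparisons. Cxcl15, a chemokine of lung epithelium, averaged 220.2 ± 177 CPM in SiglecFhi/CD101+, 222 ± 49.8 CPM in Siglec-Fint/CD101- and 71.3 ± 66.4 CPM in resident libraries. Cxcl16, a membrane-bound ligand of CXCR6, averaged 20.4 ± 10.8, 56.1 ± 68.0 and 128 ± 63.6 CPM in the same order. Ccl2, the ligand of CCR2 that draws monocytes, was at 0 and 1.21 CPM in SiglecFhi/CD101+ (2 counts), at 0.724 and 35.2 CPM in Siglec-Fint/CD101- and at 46.2 to 68.3 CPM in the resident group. All 4 subset libraries were below all 4 resident ones, and replicate 2 held 57 of the 58 Siglec-Fint/CD101- counts. Cxcl14 averaged 27.3 ± 13.7, 17.3 ± 18.3 and 39.8 ± 14.9 CPM (SD, n = 2, 2 and 4 in this paragraph and the next).

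Of 10 receptor genes for the members, 6 were tested and 0 passed by edgeR, with a smallest adjusted p of 0.115. Ccr8 was at 0 in all libraries, and Ccr4, Cxcr1, Ackr1 and Ackr2 were at 0 in both subsets. In the resident group Ccr4, Cxcr1 and Ackr1 had 5, 3 and 7 counts, with means of 0.0836, 0.125 and 0.142 CPM. These are below the 1.58 CPM or more that 3 counts equal in subset libraries, so the zeros there say little. Ackr2 had 163 resident counts, at 0.166 to 8.23 CPM. Ccr2 averaged 11.4 ± 15.2 CPM in SiglecFhi/CD101+, 2.12 ± 2.12 CPM in Siglec-Fint/CD101- and 51.5 ± 20.6 CPM in the resident group, and Ccr1 13.5 ± 15.3, 15.1 ± 21.4 and 26.5 ± 11.6 CPM in the same order. Cxcr2, the receptor of Cxcl2, was at 33.2 and 37.0 CPM in SiglecFhi/CD101+ libraries, at 0 in both Siglec-Fint/CD101- libraries and at 3.91 to 12.3 CPM in resident libraries. Both SiglecFhi/CD101+ libraries were above the other 6. Its adjusted p between the subsets was 0.199 by edgeR. By unadjusted p-values under 0.05, 0 receptor genes were called in SiglecFhi/CD101+ against resident, 2 were lower in Siglec-Fint/CD101- against resident, and 1 (Cxcr2) was higher in SiglecFhi/CD101+ than in Siglec-Fint/CD101-. For both subsets against resident 2 were lower. Of 17 upstream receptors and factors, 14 were tested and 0 passed by edgeR (smallest adjusted p 0.1). Unadjusted, 3 were lower in SiglecFhi/CD101+ and 4 in Siglec-Fint/CD101- against resident, 2 were higher in SiglecFhi/CD101+ than in Siglec-Fint/CD101-, and 5 were lower for both subsets against resident. Of all genes, 13.1% were lower in SiglecFhi/CD101+ and 13.8% in Siglec-Fint/CD101- against resident. Between the subsets 9.98% of all genes were higher in SiglecFhi/CD101+, and for both subsets against resident 21% were lower. The same shares stand beside the receptor counts. Nfkbia, an NF-kB target and inhibitor, averaged 448 ± 357 CPM in SiglecFhi/CD101+, 679 ± 45.5 CPM in Siglec-Fint/CD101-, and 959 ± 292 CPM in the resident group, and Nfkb1, which encodes an NF-kB subunit, 112 ± 16.7, 91.6 ± 5.49 and 216 ± 67.6 CPM. Rel, another NF-kB subunit, averaged 33.9 ± 5.03, 40.8 ± 44.6 and 116 ± 59.6 CPM, and the transcription factor gene Klf4 25.8 ± 9.02, 77.6 ± 54.5 and 69.2 ± 20.5 CPM in the same order.

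The genes whose profiles over the 8 libraries were nearest to a member were found by the root mean square difference of centred log2 CPM, among 5733 candidates. For Ccl17 they were Bcl2a1d (0.453) and Il6ra (0.495), for Ccl22 Eif3m (0.304) and Ciita (0.362), and for Ccl9 Lgals1 (0.465) and Cct7 (0.492). Ccl6 was nearest to Srgn (0.217) and Atp6v1d (0.267), Cxcl2 to Rgs2 (0.218) and Lmnb1 (0.246), Ccl3 to Cmtm7 (0.418) and Cytip (0.453), and Ccl4 to Sub1 (0.36) and Cox5b (0.402). For Ccl8, Ccl11 and Ccl24 the nearest genes differed by 1.16 or more. Among the 7 members with counts in every library, Ccl6 and Cxcl2 were the closest pair (0.407), followed by Ccl9 and Ccl3 (0.514). Ccl17 and Ccl22, which lie near each other on chromosome 8, differed by 1.08. All profiles share the same libraries and depths.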

How the data were processed

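RNA of 8 libraries of sorted eosinophils was read by CEL-Seq on an Illumina NextSeq, per the labels' protocols. The deposited values are whole-number counts per Ensembl gene, not normalized by the authors. Trimming with cutadapt 1.10 and Trim Galore, quality checks with FastQC 0.11.5, and TopHat2 2.1.0, Bowtie2 2.2.6, HTSeq 0.6.1 and DESeq2 1.28.0 are named, per the submitters' processing notes. The build, strand setting and any molecular identifiers were not given in the sources used here, and duplicate reads may be counted.

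Symbols came from the GENCODE M21 table, which matched 54409 of 54446 genes. Counts were tested in R 4.3.3 with edgeR 4.0.16 (TMM, filterByExpr, group-means model over all 8 libraries, robust quasi-likelihood, two-sided, Benjamini-Hochberg over 11828 genes, adjusted p under 0.05). The standard error is the absolute log2 fold change over the square root of F. Ratios of sums use TMM-adjusted library sizes with exact binomial 95% intervals. Profiles used log2 CPM with a prior count of 2. The edgeR procedure was run on simulated data with large changes set in some genes of SiglecFhi/CD101+ libraries. How often it finds smaller changes was not examined. DESeq2 1.42.0, limma-voom (limma 3.58.1), other scalings and filters, fits on the compared groups, a block on replicate number and fits with each library left out were alternatives.

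The members and lists were chosen with earlier results of these data known. All 10 members are named. From the lists of other chemokines, receptors and upstream factors, up to 4 genes with the highest mean CPM are named. Receptor genes at 0 in both subsets are named as well, and 1 gene that the rule selects is not reported here. Nearest genes were the 2 with the smallest distance among genes at or above the median level, without gene models, ribosomal pseudogenes and antigen receptor segments. No 2 libraries held identical values.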

Additional observations from a re-analysis of the deposited data

Results flagged for a closer look

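In resident libraries (n = 4), 3 of 13 chemokine levels and ratios had 1 library far from the other 3. Chance alone gives about 1 in 20 for continuous values, a rate that does not hold here. Ccl8 and Ccl24 had counts in 1 resident library only, which sets the flag whatever the count. Ccl11 had counts in 2. Ccl24 was at 4.1 CPM (62 counts) in resident replicate 6 and at 0 in the others. Basophil and mast cell markers summed to 64.3 CPM in that library, with Cpa3 at 48.8 CPM, and to 1.53 to 16.6 CPM in the other 3. In Siglec-Fint/CD101- replicate 1, the library with the highest Ccl24 level (39.1 CPM), they summed to 0.724 CPM. Their part in the Ccl24 level was not tested. Ccl11 was at 0.463 CPM (7 counts) in resident replicate 6, against 1 count in the other 3 resident libraries together. Ccl8 was at 0.0782 CPM in resident replicate 4, a single count. The groups of 2 libraries are too small for such a check, so the gap between the Siglec-Fint/CD101- libraries in Ccl9, Ccl17 and Ccl24 was not examined in this way.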

How the results depend on the processing

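Of 522 recomputed fold changes and adjusted p-values of single chemokines, 483 kept their direction and side of the threshold, 30 changed sign and 9 came to pass the threshold. Depth limits Ccl8, Ccl11 and Ccl24 most, since 3 counts already equal 1.58 CPM or more in subset libraries. The chemokines called were 0 with the stated settings. Without the low-count filter 1 was called in SiglecFhi/CD101+ against resident (Ccl17), 1 in Siglec-Fint/CD101- against resident and 1 for both subsets (Ccl8). DESeq2 called 1 in SiglecFhi/CD101+ and 2 in Siglec-Fint/CD101- against resident, 1 between the subsets and 1 for both subsets, all of them Ccl8 or Ccl11, which were tested only through the group where they were high and support nothing, and library totals alone called 2 for both subsets (Ccl22, adjusted p = 0.0423, and Ccl8, 0.043). Leaving out a library called 0 in every comparison.

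Genes called in SiglecFhi/CD101+ against resident were 3, and 7 on library totals, 370 without a filter, 940 with DESeq2, 1 on the compared groups, and 1 to 133 with a library left out. In Siglec-Fint/CD101- against resident they were 7, and 3, 136, 737 and 0 under the same settings, 1 with 20 counts in 2 libraries, 2 with limma-voom and 0 to 9 with a library left out. Between the subsets they were 1, and 85 without a filter, 1309 with DESeq2, 0 with limma-voom, 0 on the compared groups and 0 to 2 with a library left out. For both subsets they were 3, and 8 with RLE, 773 on library totals, 201 without a filter, 1039 with DESeq2, 5 with limma-voom and 2 to 6 with a library left out. The cause of these changes was not tested. The subsets share replicate numbers 1 and 2, which the labels do not explain, and resident libraries share none with them, so no block could be fitted there. Same-numbered deviations from the group means correlated at 0.00665 over genes. With 2 libraries in each subset this value cannot tell whether the numbers pair the samples. With a replicate block on the 4 subset libraries 4 genes and 0 chemokines were called.

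Small changes turned sign. With RLE and with DESeq2, Ccl17 and Cxcl2 in Siglec-Fint/CD101- against resident were 0.037 and 0.091, and Ccl3 and Cxcl2 for both subsets 0.27 and 0.35. On library totals, SiglecFhi/CD101+ against resident gave -0.30 for Ccl6 and -0.37 for Cxcl2, Siglec-Fint/CD101- gave -0.24 for Ccl6 and -0.48 for Ccl4, and both subsets gave -0.27 for Ccl6 and -0.15 for Ccl9. With a library left out, SiglecFhi/CD101+ against resident ranged from -0.058 to 0.54 for Ccl6 and -0.45 to 0.47 for Cxcl2, and the adjusted p of Ccl8 from 0.107 to 0.88. Siglec-Fint/CD101- against resident ranged from -2.71 to 0.50 for Ccl17, -0.019 to 0.87 for Ccl6, -0.48 to 2.44 for Ccl9, -0.34 to 1.36 for Ccl3 and -0.39 to 0.61 for Ccl4. Between the subsets Ccl6 ranged from -0.69 to 0.20 and Cxcl2 from -0.13 to 0.73. For both subsets Ccl9 ranged from -0.58 to 0.88, Ccl3 from -0.77 to 0.39 and Cxcl2 from -0.38 to 0.22. The count of 4 of 7 chemokines lower between the subsets, chosen after seeing the data, was 2 with DESeq2 and with the block, and 0 with limma-voom and on the compared groups.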
